A study of Mus musculus with 6 samples.

Results

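Alcohol and aldehyde dehydrogenases of mouse liver were followed through 10 genes: Adh1, Adh4, Adh5, Adh7, Aldh1a1, Aldh1a7, Aldh2, Aldh3a2, Aldh8a1 and Aldh9a1. They were chosen by name, as family members that handle ethanol, retinoids and lipid aldehydes, and all 10 were found among the 24411 gene symbols of the count table. Whole livers of 3 p62+/+ and 3 p62S351E/+ mice were sequenced at postnatal day 19 after removal of ribosomal RNA, and reads were counted per gene. The p62S351E/+ mice carry 1 Sqstm1 allele in which Ser351 of p62 is replaced by Glu, a change that imitates phosphorylation, while p62+/+ mice carry no edited allele. The allele was made by prime editing in RENKA4 cells, a C57BL/6N-derived embryonic stem cell line, and the heterozygotes were obtained by in vitro fertilization with sperm of 1 male chimera of low chimerism. The comparison addresses how liver gene expression differs when p62 carries the phosphomimetic residue, a form of p62 that binds KEAP1 tightly and so bears on the stress-response factor NRF2. Gene counts do not show which allele is transcribed, so they are no check of the edit. The authors reported severe growth retardation of p62S351E/+ mice at younger ages, with serum signs of malnutrition and dehydration. Nutritional state may thus differ with genotype, and its part in the differences below was not tested.

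Alcohol dehydrogenases oxidise alcohols such as ethanol and retinol to aldehydes with NAD, and aldehyde dehydrogenases oxidise the aldehydes further to acids. In hepatocytes the pair of steps turns ethanol into acetaldehyde and then acetate, and turns retinol into retinal and then retinoic acid. Other members act on aldehydes made by the cell itself, such as formaldehyde, fatty aldehydes from lipids, and intermediates of tryptophan and carnitine metabolism.

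The libraries were shallow outside a few abundant transcripts. Total estimated counts were between 8696712 and 10341622 per mouse, but Rn45s, Lars2 and Mir6236 took 96.7% to 98.7% of them and left between 134911 and 315436 counts for all other genes. Summed over the 10 dehydrogenases, p62+/+ livers gave 737, 833 and 726 counts, and p62S351E/+ livers gave 543, 1014 and 1065. All 10 hepatocyte markers, such as Alb, were detected in the libraries, with summed counts between 11210.7 and 26691. Transcripts of 10 brain markers, such as Snap25 and Gfap, were also present, with summed counts of 2203 to 2569 for p62+/+ livers. For p62S351E/+ livers the sums were 25 (mouse 1), 33 (mouse 2) and 2342 (mouse 3). Xist, transcribed from the inactive X chromosome, gave 70.8, 1505 and 1071 counts for p62+/+ livers against 1, 0 and 1537 for p62S351E/+ livers. By the brain markers p62S351E/+ mouse 3 lay with the p62+/+ mice, apart from p62S351E/+ mice 1 and 2. By Xist it lay with p62+/+ mice 2 and 3, while p62+/+ mouse 1 was far lower than these. Results are therefore given with and without p62S351E/+ mouse 3.

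The Adh genes lie side by side on chromosome 3 of GRCm38.p6, the patch of the mm10 build used for the RefSeq positions given here. In the order of the chromosome they are Adh7 (chr3:138198064-138232042), Adh1 (chr3:138277585-138290698), Adh4 (chr3:138415456-138432683) and Adh5 (chr3:138437200-138455499), all on the plus strand. Aldh1a1 (chr19:20492583-20643463, plus strand) and Aldh1a7 (chr19:20692953-20727556, minus strand) are neighbours on chromosome 19. The remaining genes are Aldh2 (chr5:121566027-121593824, minus strand), Aldh3a2 (chr11:61223417-61267528, minus strand), Aldh8a1 (chr10:21377300-21396578, plus strand) and Aldh9a1 (chr1:167349963-167368530, plus strand).

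Of the 10 genes, 8 passed the filter on low counts and none passed the test between genotypes, an adjusted p below 0.05 (edgeR's quasi-likelihood test, Benjamini-Hochberg over 5945 genes) with a log2 fold change above 1 or below -1. Across all tested genes, 50 were called higher in p62S351E/+ mice (0.841%) and 5 lower (0.0841%). Without p62S351E/+ mouse 3 these became 333 of 6390 genes higher (5.21%) and 975 lower (15.3%). The estimates nevertheless all lay on 1 side: the log2 fold change of p62S351E/+ over p62+/+ was above 0 for 8 of 8 tested genes, against 48% of all tested genes, and its median was 0.79, against -0.03. At an unadjusted p below 0.05, 7 of the 8 were higher by edgeR, against 9.02% of all genes by edgeR, and 0 were lower by edgeR. By DESeq2 5 of the 8 were higher at that level, and the DESeq2 share of all genes is not given. DESeq2 and limma-voom each called 1 of the 8, Aldh3a2, where they called 5.07% of the 1775 genes with an adjusted p and 2.05% of 5945 genes higher. Aldh3a2 was also the 1 member called by the legacy quasi-likelihood method (1.01% of all genes called higher), with no filter on low counts (0.485%) and with at least 10 counts in every library (2.99%). Leaving out 1 mouse at a time gave between 2 and 8 genes at that unadjusted level, the 8 being of 9 tested without p62S351E/+ mouse 3. Scaling by library size alone gave 0. With Xist or the summed brain markers as a covariate, or with scaling by the hepatocyte markers, 1 of 8 was at that level. With at least 10 counts in every library it was 2 of 7. No shares of all genes at that level are given for these fits. Since the genes were chosen with earlier results of these data known, these counts are a description of the family.

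**Figure D1:**
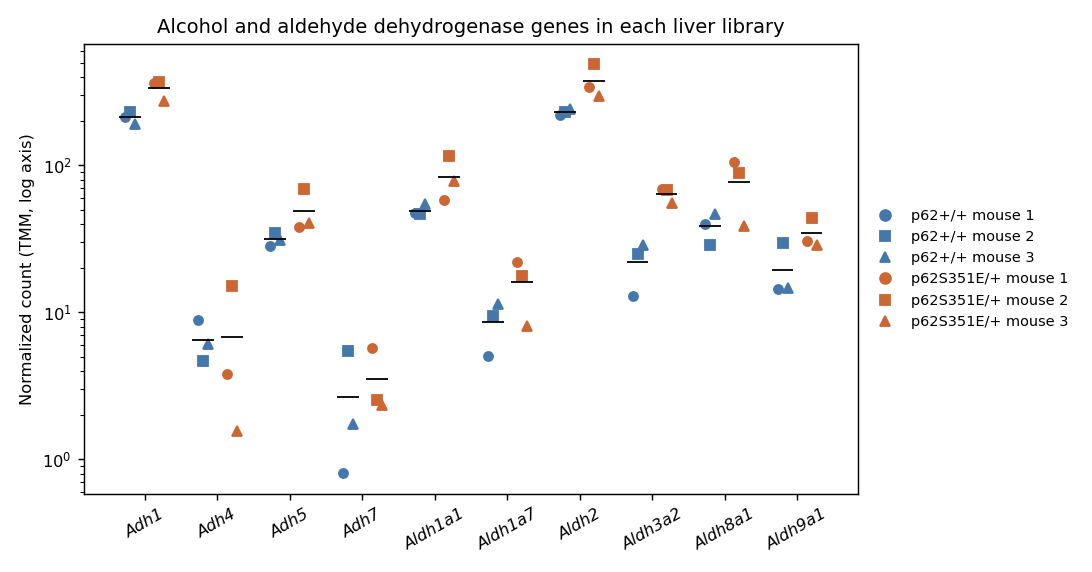
Normalized counts (TMM-scaled, log axis) of the 10 genes in each of the 6 livers, with 1 symbol per mouse, blue for p62+/+ and orange for p62S351E/+, and a black line at each group mean. The groups do not overlap for Adh1, Adh5, Aldh1a1, Aldh2 and Aldh3a2. The orange triangle, p62S351E/+ mouse 3, falls among the blue symbols for Aldh8a1, Aldh1a7, Aldh9a1 and Adh7, and below them for Adh4.

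In 5 of the 8 tested genes every p62S351E/+ mouse had a higher normalized count than every p62+/+ mouse, a pattern that 12% of all tested genes showed. A normalized count here is the estimated count divided by the relative size of its library after TMM scaling. The 5 genes were Adh1, Adh5, Aldh1a1, Aldh2 and Aldh3a2.

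Aldh3a2, which encodes the fatty aldehyde dehydrogenase that oxidises long-chain aldehydes from fatty alcohols, phytol and sphingolipids, differed most. Its normalized counts were 12.8, 24.8 and 28.5 in the p62+/+ mice and 68.6, 68.0 and 55.8 in the p62S351E/+ mice. The lowest p62S351E/+ value was well above the highest p62+/+ value, and here mouse 3 lay with its genotype. The log2 fold change was 1.53 (SE 0.31, 95% interval 0.82 to 2.24, n = 3 per group), that is 2.89-fold, with an adjusted p of 0.0759 by edgeR. This missed the threshold. DESeq2 gave Aldh3a2 an adjusted p of 0.0120, and limma-voom gave 0.00988. The fit without p62S351E/+ mouse 3 gave a log2 fold change of 1.63 with an adjusted p of 0.00285, and over 20 alternatives the adjusted p lay between 0.00285 and 0.421. The raw counts behind these values were 16, 32 and 33 against 36, 54 and 72, so the call rests on few reads and on the choice of test.

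Adh1 and Aldh2, which carry most of the two-step oxidation of ethanol in hepatocytes, were the most abundant members. Adh1, the class I enzyme that oxidises ethanol and retinol in the cytosol, had 214, 231 and 190 normalized counts in the p62+/+ mice and 362, 370 and 274 in the p62S351E/+ mice. Its groups did not overlap, but p62S351E/+ mouse 3 lay nearest to the p62+/+ range. The log2 fold change was 0.66 (SE 0.22, 95% interval 0.17 to 1.16, n = 3 per group) with an adjusted p of 0.241 by edgeR.

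Aldh2, the mitochondrial enzyme that removes acetaldehyde, had 220, 231 and 243 normalized counts in the p62+/+ mice and 341, 486 and 297 in the p62S351E/+ mice. Again the groups did not overlap and mouse 3 was the lowest of its genotype. Aldh2 had a log2 fold change of 0.70 (SE 0.24, 95% interval 0.15 to 1.24, n = 3 per group) with an adjusted p of 0.257 by edgeR. Without p62S351E/+ mouse 3, Adh1 (log2 fold change 0.79, adjusted p = 0.0125 by edgeR) and Aldh2 (0.84, adjusted p = 0.0132) passed the adjusted p but not the fold threshold, in a fit in which 7% of 6390 tested genes were higher at that adjusted p.

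The other Adh genes were sparser. Adh5, the class III enzyme that oxidises the glutathione adduct of formaldehyde and reduces S-nitrosoglutathione, had 28.1, 34.9 and 31.1 normalized counts in the p62+/+ mice and 38.1, 69.3 and 40.3 in the p62S351E/+ mice. The groups did not overlap, although p62S351E/+ mouse 1 lay close to the highest p62+/+ mouse and mouse 2 stood above the rest. The log2 fold change was 0.65 (SE 0.28, n = 3 per group) with an adjusted p of 0.337 by edgeR. Without p62S351E/+ mouse 2 it was 0.33, and scaled by library size alone it was -0.02. Adh4, the class II enzyme, which also oxidises ethanol and retinol, had raw counts of 11, 6 and 7 in the p62+/+ mice and 2, 12 and 2 in the p62S351E/+ mice. Adh7, the class IV enzyme best known from stomach and oesophagus, had raw counts of 1, 7 and 2 against 3, 2 and 3. Both groups overlapped for these 2 genes, neither passed the filter, and no difference was detectable at this depth. Markers of squamous epithelium and stomach summed to at most 6 counts in a library, and 7 of these 10 markers were at 0 in all 6 libraries.

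Aldh1a1 and Aldh1a7 are neighbouring paralogs, and reads that match both had been divided between them by the authors' counting. Aldh1a1 encodes the cytosolic retinal dehydrogenase of liver, and Aldh1a7 is closely related to it. Among the windows before their starts, the stretch below shows how alike they are: in capitals stand 65 bases shared without a difference, which end 29 bases before each start. In an alignment of these 250 bases, 175 of 235 aligned bases were identical (74.5%).
Aldh1a1: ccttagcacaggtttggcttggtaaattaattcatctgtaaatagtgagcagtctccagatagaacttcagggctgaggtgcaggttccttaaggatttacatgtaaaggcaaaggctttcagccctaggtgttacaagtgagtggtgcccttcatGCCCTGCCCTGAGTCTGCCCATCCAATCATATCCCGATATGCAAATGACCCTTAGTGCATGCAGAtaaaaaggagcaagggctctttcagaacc
Aldh1a7: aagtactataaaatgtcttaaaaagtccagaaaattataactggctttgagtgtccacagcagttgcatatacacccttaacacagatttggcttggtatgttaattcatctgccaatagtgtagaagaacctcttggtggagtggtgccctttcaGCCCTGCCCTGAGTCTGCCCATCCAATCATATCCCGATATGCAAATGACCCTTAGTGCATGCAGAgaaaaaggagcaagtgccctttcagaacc
The first sequence is chr19:20601718-20601967 on the plus strand and the second is chr19:20727557-20727806 on the minus strand of GRCm38.p6. RefSeq lists a further start of Aldh1a1 upstream, and the window shown is the one with the longer run in common with Aldh1a7. Within their coding transcripts, 50 stretches of 75 bases, the read length, were identical between the genes. These were 2.01% of those of Aldh1a1 and 2.51% of those of Aldh1a7. They were the only members whose estimated counts were not whole numbers within 0.001, while their sum was whole in every mouse.

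Aldh1a1 had 47.1, 46.4 and 54.3 normalized counts in the p62+/+ mice and 58.0, 116 and 77.9 in the p62S351E/+ mice. The groups did not overlap, and the p62S351E/+ mice spread more widely than the p62+/+ mice. The log2 fold change was 0.76 (SE 0.28, n = 3 per group) with an adjusted p of 0.281 by edgeR. Aldh1a7 had 5.05, 9.45 and 11.4 normalized counts against 22.0, 17.8 and 8.11, so p62S351E/+ mouse 3 lay within the p62+/+ range. Its log2 fold change was 0.87 (SE 0.49, n = 3 per group) with an adjusted p of 0.437 by edgeR, the widest error of the 8 tested genes. Without p62S351E/+ mouse 3 it was 1.24, and with the summed brain markers as a covariate it was -0.17. Because the division between the paralogs is uncertain, the counts were also summed: 65, 72 and 76 in the p62+/+ mice and 42, 106 and 111 in the p62S351E/+ mice. After scaling, the sum gave a log2 fold change of 0.79 (SE 0.25, n = 3 per group) with an adjusted p of 0.238 by edgeR.

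Aldh8a1 and Aldh9a1 act on aldehydes of amino acid metabolism. Aldh8a1, which oxidises 2-aminomuconic semialdehyde in the kynurenine pathway, had 40.1, 28.7 and 46.6 normalized counts in the p62+/+ mice and 105, 88.2 and 38.7 in the p62S351E/+ mice. Mice 1 and 2 were above every p62+/+ mouse and mouse 3 was inside their range. For all 6 mice the log2 fold change was 0.99 (SE 0.37, 95% interval 0.14 to 1.84, n = 3 per group) with an adjusted p of 0.290 by edgeR. Without p62S351E/+ mouse 3 it was 1.32 (SE 0.26) with an adjusted p of 0.00285, and Aldh8a1 and Aldh3a2 were then the 2 members called higher, where 5.21% of all genes tested were called. With the summed brain markers as a covariate the estimate for Aldh8a1 was -0.03.

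Aldh9a1, which makes the carnitine precursor gamma-butyrobetaine and also oxidises aminoaldehydes, had 14.4, 29.5 and 14.7 normalized counts in the p62+/+ mice and 30.5, 44.1 and 28.7 in the p62S351E/+ mice. The groups overlapped by a single pair of mice, the highest p62+/+ mouse and p62S351E/+ mouse 3. The log2 fold change was 0.81 (SE 0.35, n = 3 per group) with an adjusted p of 0.335 by edgeR.

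The sequence before the start of Aldh9a1 is shown because it held the only match to TGACNNNGC among the windows of the family that were searched. TGACNNNGC is the core of the antioxidant response element at which NRF2 and small MAF proteins bind. The letters were searched on both strands in the 250 bases before and 50 bases after each listed RefSeq start. Of 11 such windows 1 held a match, against 4071 of 32851 windows of all genes (12.4%). The 11 windows belong to 9 of the 10 genes, and Aldh2 had no window. Some listed starts, that of Aldh3a2 among them, lie inside the gene's span given above, so these windows are not all upstream of the gene. The capitals mark the match in chr1:167349741-167349990 (plus strand of GRCm38.p6), the 250 bases before the listed start of Aldh9a1, of which the last 28 lie inside the span of the gene. A match in letters is a description and not a binding site.
Aldh9a1: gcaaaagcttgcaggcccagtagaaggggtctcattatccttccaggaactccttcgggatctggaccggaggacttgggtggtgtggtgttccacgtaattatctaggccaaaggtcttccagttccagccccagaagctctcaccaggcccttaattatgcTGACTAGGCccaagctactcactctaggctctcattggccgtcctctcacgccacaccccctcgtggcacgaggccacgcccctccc

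**Figure D2:**
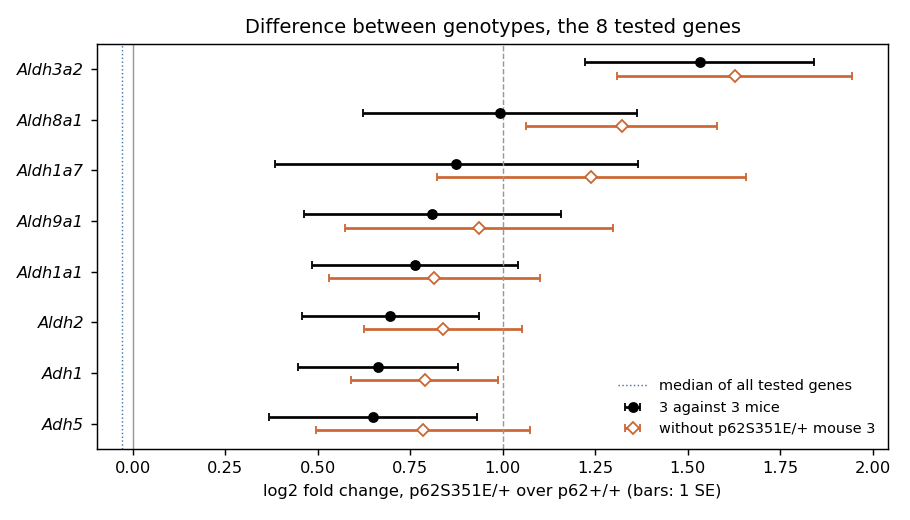
Log2 fold change of p62S351E/+ over p62+/+ for the 8 tested genes, with bars of 1 SE, for all 6 mice (black circles) and without p62S351E/+ mouse 3 (open diamonds). All 16 estimates lie above 0 and above the dotted median of all genes at -0.03, and leaving out mouse 3 moves Aldh8a1 from 0.99 to 1.32, past the dashed line at 1.

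The place of p62S351E/+ mouse 3 varied among the 8 tested genes. Mouse 3 lay above every p62+/+ mouse in 5 of the 8 tested genes, against 27.7% of all tested genes. These were the 5 whose groups did not overlap, and such genes have mouse 3 above by definition. Relative to the p62+/+ mean its log2 ratio was 1.34 for Aldh3a2 and 0.66 for Aldh1a1. It was 0.37 for Adh1, 0.36 for Aldh2 and 0.36 for Adh5. For Aldh9a1 the ratio was 0.55, larger than for Adh1, Aldh2 and Adh5, yet mouse 3 lay inside the p62+/+ range. For Aldh8a1 and Aldh1a7 it was 0.01 and -0.09, so mouse 3 was at the level of p62+/+ mice for these 2 genes. With the summed brain markers as a covariate the median over the 8 genes was 0.37 instead of 0.79, and Aldh3a2 had 1.32. With Xist as a covariate the median was 0.46, Aldh3a2 had 1.56, Aldh8a1 had 0.29 and Aldh1a7 had 0.33. Both covariates set p62S351E/+ mice 1 and 2 apart from mouse 3, so brain transcripts, sex and other differences of these libraries cannot be told apart.

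Set against all counts outside Rn45s, Lars2 and Mir6236, the 10 genes together took 0.248%, 0.278% and 0.267% in the p62+/+ mice. The same share was 0.402% (95% interval 0.369% to 0.438%), 0.438% (0.411% to 0.465%) and 0.338% (0.318% to 0.358%) in the p62S351E/+ mice. The p62+/+ intervals, from 0.230% at the lowest to 0.298% at the highest, did not reach those of any p62S351E/+ mouse. All intervals on shares are exact binomial (Clopper-Pearson) and cover counting error only. Estimates for hepatocyte transcripts lay on the same side: of the 10 hepatocyte markers 9 had a log2 fold change above 0, with a median of 0.51, no call and 3 higher at an unadjusted p below 0.05 by edgeR. The 9 brain markers that were tested were all below 0, with a median of -1.45, no call and 1 at an unadjusted p below 0.05. Stellate cell and fibroblast markers had a median of -0.96, with 3 of 6 tested lower at an unadjusted p below 0.05 and none called. Of all tested genes, 330 of 5945 were lower at that level by edgeR. The normalized sums of their 10 markers were 186 to 326 in p62+/+ and 111 to 164 in p62S351E/+ mice and did not overlap. Gene by gene, 2 of the 6 lay lower without overlap, against 875 of all 5945 tested genes. Sums of the 8 Kupffer cell markers did not overlap either and were higher, 48.9 to 71.7 in p62+/+ and 72.8 to 97.0 in p62S351E/+ mice. Of the 4 Kupffer cell markers tested, 2 were above 0 and 2 below. The hepatocyte sums (higher) and brain sums (lower) did not overlap either. The part of the stellate cell, fibroblast and Kupffer cell transcripts in the dehydrogenases' difference was not tested. When the geometric mean of the hepatocyte markers set the scale, the median of the 8 dehydrogenases was 0.24. The median was -0.05 for the hepatocyte markers themselves and -0.49 for all genes. Of the 8 dehydrogenases 1, Aldh3a2, was at an unadjusted p below 0.05 by edgeR. Aldh3a2 then had 1.03 instead of 1.53, with an adjusted p of 0.375 by edgeR. In bulk liver, fewer cells of a type and less RNA per cell cannot be told apart.

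The make-up of the family needs no scaling between libraries, and in it only Aldh3a2, of the 10 genes, had groups that did not overlap. Of the counts of the 10 genes, Aldh2 took 37.2% ± 1.47 in p62+/+ and 35.7% ± 2.57 in p62S351E/+ mice, and Adh1 took 34.1% ± 3.30 and 32.4% ± 3.08 (SD, n = 3 for each). Aldh3a2 took 2.17%, 3.84% and 4.55% in the p62+/+ mice and 6.63%, 5.33% and 6.76% in the p62S351E/+ mice. Its share was thus higher in 3 of 3 p62S351E/+ mice than in any p62+/+ mouse, with means of 3.52% ± 1.22 and 6.24% ± 0.794 (SD, n = 3). The shares of the other 9 genes overlapped between genotypes. The exact two-sided permutation p for Aldh3a2 was 0.1, the smallest that 3 against 3 mice allow, and 1 after Benjamini-Hochberg adjustment over the 10 genes. Any gene whose groups do not overlap gets this p of 0.1, so the pattern in 1 of 10 genes is given as a description.

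**Figure D3:**
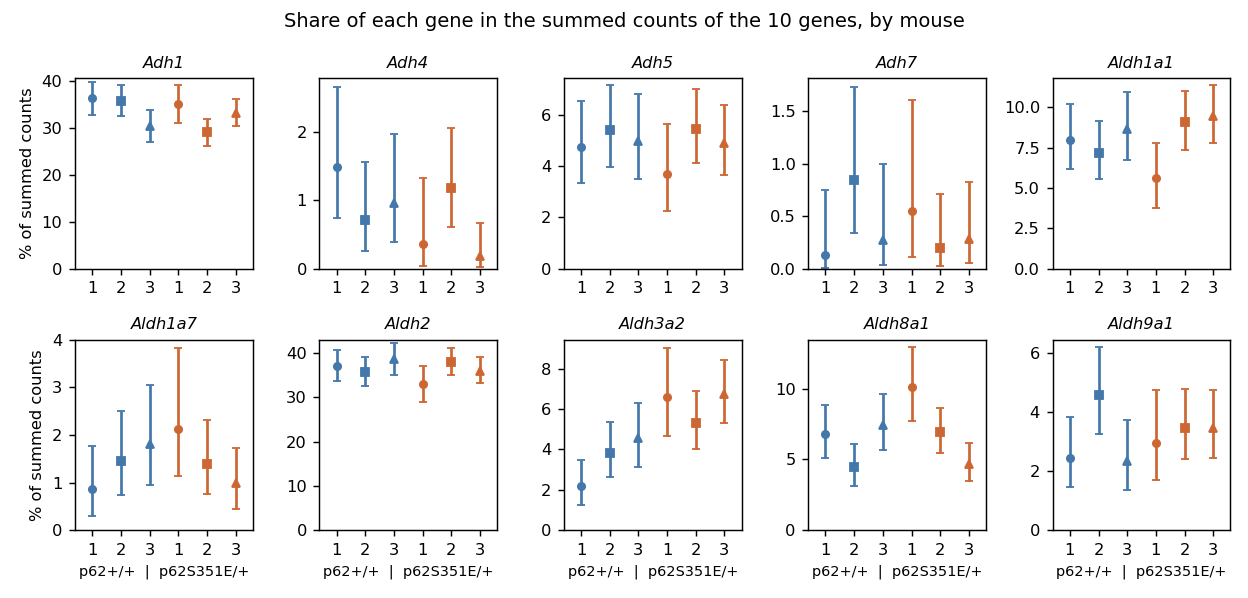
Share of each gene in the summed counts of the 10 genes, in percent, for p62+/+ mice 1 to 3 (blue) and p62S351E/+ mice 1 to 3 (orange), with 95% exact binomial intervals and a separate axis from 0 for each gene. For Aldh3a2 the blue points lie between 2.17% and 4.55% and the orange points between 5.33% and 6.76%, and for the other 9 genes the colours overlap.

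The order of the levels was read per kilobase of exon, as normalized counts divided by the exonic length of each gene's coding transcripts in GENCODE. In p62+/+ mice Adh1 came first with 142 ± 13.9 normalized counts per kilobase and Aldh2 followed with 55.7 ± 2.75 (SD, n = 3). Aldh1a1 with 19.7 ± 1.74, Adh5 with 19.6 ± 2.14 and Aldh8a1 with 17.0 ± 4.01 came next, and these 3 overlapped from each gene to the next, while standing apart from Aldh2 above and Aldh9a1 below. Aldh9a1 with 6.89 ± 3.04, Adh4 with 4.79 ± 1.56, Aldh1a7 with 4.17 ± 1.57 and Aldh3a2 with 4.15 ± 1.54 normalized counts per kilobase overlapped in the same way. Adh7 was last with 0.773 ± 0.714, below every p62+/+ value of Aldh3a2. Adh1 and Aldh2 held ranks 1 and 2 in p62S351E/+ mice as well, with 225 ± 35.7 and 90.2 ± 23.8 per kilobase. Aldh3a2 stood at rank 9 in p62+/+ and rank 7 in p62S351E/+ mice, where it had 12.1 ± 1.36 normalized counts per kilobase (SD, n = 3).

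Genes of the pathways around these enzymes were taken from 8 lists that hold 121 genes, of which 114 were in the table and 61 were tested. Of these 8 were called higher and none lower by edgeR, against 0.841% and 0.0841% of all genes, and at an unadjusted p below 0.05 there were 32 higher, against 9.02%, and 1 lower. The median log2 fold change of the 61 genes was 0.71, with 51 of them above 0. Without p62S351E/+ mouse 3, 25 of 64 tested genes were called higher (5.21% of all genes). Scaled by library size alone 3 were (0.202% of all genes), and DESeq2 called 6 higher (5.07% of all genes with an adjusted p). The lists were written with results of these data known and are given as descriptions.

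Among 8 tested genes of the other Adh and Aldh genes none was called by edgeR, 5 were higher at an unadjusted p below 0.05, all 8 were above 0 and the median was 0.75. Aldh1l1, which oxidises 10-formyltetrahydrofolate, came nearest with 167, 175 and 168 normalized counts in the p62+/+ mice and 409, 554 and 299 in the p62S351E/+ mice. Its groups did not overlap and its log2 fold change was 1.31 (SE 0.26) with an adjusted p of 0.0743 by edgeR. Aldh1b1, a mitochondrial acetaldehyde dehydrogenase, had a log2 fold change of 1.30 on raw counts of 8 to 18, and Aldh6a1, of valine catabolism, one of 0.96.

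In the list of folate oxidation and the formaldehyde route, where Adh5 acts, 2 of 7 tested genes were called higher by edgeR, against 0.841% of all genes. All 7 were above 0, and 5 were higher at an unadjusted p below 0.05 by edgeR. Esd, the S-formylglutathione hydrolase that takes the product of Adh5, had 12.8, 16.3 and 12.1 normalized counts in the p62+/+ mice and 43.8, 42.8 and 31.0 in the p62S351E/+ mice. The groups stood apart and the log2 fold change was 1.50 (SE 0.27) with an adjusted p of 0.0484 by edgeR. Sardh, the sarcosine dehydrogenase whose reaction releases formaldehyde units to folate, rose by 1.44 on the log2 scale (SE 0.25, adjusted p = 0.0442 by edgeR). Dmgdh, the step before it, and Gldc, of the glycine cleavage system, had log2 fold changes of 1.34 and 1.25 and were not called, and the list median was 1.31.

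The enzymes that clear aldehydes and carbonyls by other routes held the largest differences, with 4 of 13 tested genes called higher. Cbr1, a carbonyl reductase, had 16.8, 13.2 and 13.0 normalized counts in the p62+/+ mice and 202, 183 and 155 in the p62S351E/+ mice. All 3 p62S351E/+ mice, mouse 3 included, were above every p62+/+ mouse, and the log2 fold change was 3.64 (SE 0.24, adjusted p = 0.000456 by edgeR). Aox1, an aldehyde oxidase, rose by 3.67 on the log2 scale (SE 0.32, adjusted p = 0.00197 by edgeR). Cbr3, another carbonyl reductase, had raw counts of 1, 1 and 0 in the p62+/+ mice and 26, 39 and 58 in the p62S351E/+ mice (adjusted p = 0.000456 by edgeR). Akr1c19, an aldo-keto reductase with close paralogs, had 4, 0 and 1 against 13, 20 and 26 (adjusted p = 0.0487). Gsta4, a glutathione transferase for 4-hydroxynonenal, Akr1d1 and Akr7a5 had log2 fold changes of 1.57, 1.26 and 1.08 and were not called.

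In retinoid handling, 1 of 9 tested genes was called. Rdh16, a retinol dehydrogenase with close paralogs and counts that were not whole, had 3.84, 6.53 and 8.38 normalized counts in the p62+/+ mice and 45.4, 32.1 and 25.3 in the p62S351E/+ mice. The groups did not overlap and the log2 fold change was 2.41 (SE 0.38, adjusted p = 0.0282 by edgeR). Retsat, a retinol saturase, Rbp4, the carrier of retinol in blood, and Rdh9 had log2 fold changes of 0.78, 0.69 and -0.68, and the list median was 0.41.

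Of 11 tested genes between tryptophan and NAD, a list taken for the kynurenine pathway to which Aldh8a1 belongs, 1 was called. Tdo2, the first enzyme of the pathway in liver, had 120, 101 and 123 normalized counts in the p62+/+ mice and 400, 478 and 287 in the p62S351E/+ mice. These ranges lay far apart, and Tdo2 rose by 1.76 on the log2 scale (SE 0.25, adjusted p = 0.0181 by edgeR). Aadat, an aminotransferase of kynurenine, Afmid, the formamidase, and Ccbl2 had log2 fold changes of 1.61, 0.94 and 0.76, and the list median was 0.71.

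By edgeR no gene was called among the lists nearest to Aldh3a2, Aldh9a1 and Aldh2. Of 9 tested genes for fatty alcohols, phytol and sphingolipid aldehydes, 5 were higher at an unadjusted p below 0.05, and the median was 0.55. Phyh, the phytanoyl-CoA hydroxylase, had a log2 fold change of 0.91, while Far1, a fatty acyl-CoA reductase, had -0.91. In carnitine synthesis 2 genes were tested and 1 was higher at that level, and the log2 fold changes were 0.88 for Shmt2 and 0.49 for Bbox1, the last enzyme of the route. In ethanol and acetate handling 3 were tested and 1 was higher at that level. Here the values were 0.96 for Cat, the catalase, 0.12 for Cyp2e1, the microsomal ethanol oxidase, and -0.45 for Acss2, an acetyl-CoA synthetase.

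**Figure D4:**
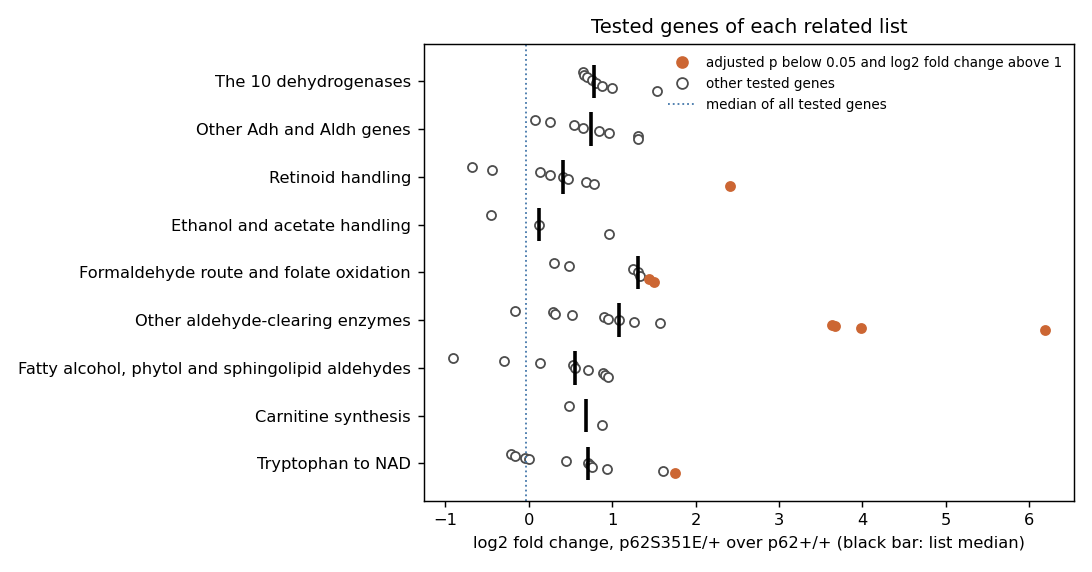
Log2 fold change of p62S351E/+ over p62+/+ for the tested genes of the 10 dehydrogenases and of the 8 related lists, with called genes in orange, other tested genes open, a black bar at each list's median and a dotted line at the median of all tested genes (-0.03). The 8 dehydrogenases are all open and lie between 0.65 and 1.53, and the 4 orange points of the other aldehyde-clearing enzymes lie furthest to the right, up to 6.19.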

How the data were processed

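Livers of 3 p62+/+ and 3 p62S351E/+ mice were sequenced as 75-base single reads after ribosomal RNA depletion. Per the labels and the submitters' processing notes, which give no versions, the authors trimmed reads with Trim Galore, mapped them to mm10 with STAR and estimated counts with RSEM. The deposited values are expected counts per gene symbol, not normalized, and the gene annotation is not given in the sources used here. RSEM divides reads that match several genes, so 6.45% of nonzero values were not whole.

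Groups and replicate numbers came from the labels, which describe separate mice. Expected counts were rounded to whole numbers and tested with edgeR 4.0.16 in R 4.3.3 (filterByExpr with a minimum count of 10, TMM, robust dispersions, quasi-likelihood test with the newer method, Benjamini-Hochberg over 5945 genes). Each standard error is the size of the log2 value over the root of its F statistic. Alternatives were DESeq2 1.42.0, limma-voom (limma 3.58.1), the legacy quasi-likelihood method, other scalings, filters and thresholds, a block for the replicate number, a covariate (Xist or summed brain markers), and fits that left out 1 mouse in turn. By DESeq2, 5.07% of the 1775 genes with an adjusted p were called higher. On simulated counts with a dispersion of 0.1 and log2 fold changes of 2 up or down, edgeR recovered 90.5% of 158 changed genes. Of the 151 edgeR calls on them 5.3% were false. Recovery of changes as small as those of the 8 tested members (0.65 to 1.53) was not simulated.

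The members and lists were chosen with earlier results of these data known. All 10 members are named, and of each related list every called gene and up to 3 further tested genes with the largest absolute log2 fold change. One gene that this rule would name is not reported here. Shares within the family, the hepatocyte-marker scaling and the sum of Aldh1a1 and Aldh1a7 were chosen after the data had been seen. Positions and upstream sequences are from RefSeq on GRCm38.p6 and exonic lengths from GENCODE M21. Depth limits genes with few counts, and p-values cover the spread between these 6 mice only.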

Additional observations from a re-analysis of the deposited data

How the results depend on the processing

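No member was called lower under any alternative. The count of members called higher was 1 instead of 0 with DESeq2, limma-voom, the legacy quasi-likelihood method, no filter on low counts, or at least 10 counts in every library, and that gene was Aldh3a2 each time; calls over all genes then numbered 90, 122, 60, 79 and 70 higher instead of 50. Leaving out 1 mouse gave between 0 and 2, and the 2 (Aldh3a2 and Aldh8a1) came without p62S351E/+ mouse 3. Over 20 alternatives the log2 fold change of Aldh3a2 lay between 0.85 and 1.76 and its adjusted p between 0.00285 and 0.421. Scaling by library size alone moved the median of all genes to -0.68 and turned the direction of Adh1 (-0.053), Adh5 (-0.0171) and Aldh2 (-0.000269), against a member median of 0.10. The brain-marker covariate turned Aldh1a7 (-0.17) and Aldh8a1 (-0.0286). Leaving out 1 mouse moved Adh5 between 0.33 and 0.81, Aldh1a1 between 0.47 and 0.98, Aldh2 between 0.47 and 0.84, Aldh1a7 between 0.56 and 1.24, and Aldh9a1 between 0.60 and 1.24. The causes of these changes were not tested. Related genes called higher numbered 3 instead of 8 with library size alone, 4 with hepatocyte-marker scaling (median of all genes -0.49), and 25 without p62S351E/+ mouse 3. Calls over all genes in the same settings numbered 12, 16 and 333 higher instead of 50. Calls over all genes numbered 18 higher and 1 lower with the replicate block.

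The labels give both genotypes the numbers 1 to 3. Deviations from the group means correlated by 0.0757, -0.0906 and -0.00136 between mice of the same number, so the numbers were not taken to pair the mice. With the replicate block 0 members were called and Aldh3a2 had a log2 fold change of 1.59.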
